A study of Mus musculus with 12 samples.

Results

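Astrocytes are the glial cells that tile the brain and wrap its synapses and vessels. In the hippocampus they clear glutamate from the synaptic cleft, turn it into glutamine for neurons, buffer potassium and water at vessel walls through their endfeet, and share small molecules through gap junctions. The set described here is 10 genes that are commonly used to mark these cells: the glutamate transporters Slc1a2 (GLT-1) and Slc1a3 (GLAST), glutamine synthetase Glul, the gap junction proteins Gja1 (connexin 43) and Gjb6 (connexin 30), the water channel Aqp4, the intermediate filament Gfap, the folate enzyme Aldh1l1, the calcium-binding protein S100b and the transcription factor Sox9. They were chosen by name, as 10 of 35580 genes and 50 of 113580 transcripts matched to GENCODE vM21. The rule used no measured value, but the set was proposed with earlier results of these data known.

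RNA of the whole hippocampus was sequenced from 12 adult male C57BL/6 mice at postnatal day 70, 3 from each of 4 groups. Control mice had dams that drank only water and were not separated from them. Ethanol mice had dams that could drink 10% ethanol in water by choice, for the whole of gestation by the labels and on into the first days after birth by the study's methods. Stress mice spent 3 h a day without dam or littermates from postnatal day 2 to postnatal day 14, and ethanol + stress mice had both exposures. The study's methods drew the separated pups from the same litters as their undisturbed littermates, but the labels tie no mouse to a litter, so mice of a group or of different groups may share a dam and the p-values treat them as independent.

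Each value is a TPM, the share of a transcript among all transcripts of a library, which is corrected for transcript length and so allows levels of different genes to be compared. A library summed to between 889222 (ethanol 3) and 1173650 (ethanol 2) rather than to a common total, so the values were taken as TPM scaled between libraries. The read pairs on transcripts of at least 600 bases, recovered from the step between low values, numbered 11481727 to 14388423 per library, and 79.5% to 83.0% of the low values came out within 0.1 of a whole read pair. Neuron markers were high in every library (8 of 8 found, summing to 3587 to 4133 TPM), whereas choroid plexus markers ran from 41.0 to 7240.4 summed TPM, with the lowest value in an ethanol and the highest in an ethanol + stress library.

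All 10 genes were detected in every library. In control mice the order of levels was Glul, Slc1a2, Slc1a3, Gfap, Gja1, S100b, Aqp4, Gjb6, Aldh1l1 and Sox9, from 1356 ± 68.3 TPM (SD, n = 3) for Glul to 7.39 ± 0.639 TPM for Sox9. Sox9 lay at percentile 58.9 of all genes and Glul at percentile 99.8. Neighbours in this order kept their places in 12 of 12 libraries, except for Gja1 over S100b, which held in 6 of 12, and Aqp4 over Gjb6, which held in 11 of 12. The ranges of Slc1a3 and Gfap over the 12 libraries also overlapped. Depth did not limit these levels much: the leading isoform of Sox9, the scarcest of the 10, had 199 to 322 read pairs per library, for a counting error of 7.09% at its lowest, against a coefficient of variation of 19.0% over the 12 libraries.

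No astrocyte gene passed the test for prenatal ethanol, for separation or for both. A gene was called at an unadjusted p under 0.01 in limma, the threshold the study used, fitted on log2(summed TPM + 0.5) with the 4 groups in one model. In the ethanol mice 0 of 10 genes were called, where 0.678% of all 18434 tested genes were. In the stress mice it was again 0 of 10, beside 0.51% of all genes, and in the ethanol + stress mice 0 of 10 beside 0.971%. The 6 ethanol-exposed libraries against the 6 others gave 0 of 10 beside 1.12%, the 6 separated against the 6 others 0 of 10 beside 0.586%, and the interaction of ethanol and stress 0 of 10 beside 0.461%. At an unadjusted p under 0.05 there were also 0 of 10 in each of these 6 comparisons. Of all 18434 genes, between 442 (separation alone against control) and 1068 (6 ethanol-exposed libraries against 6) reached that level. A count of 0 in 10 cannot be told from these backgrounds, so the sizes of the differences and their intervals carry the information.

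**Figure D1:**
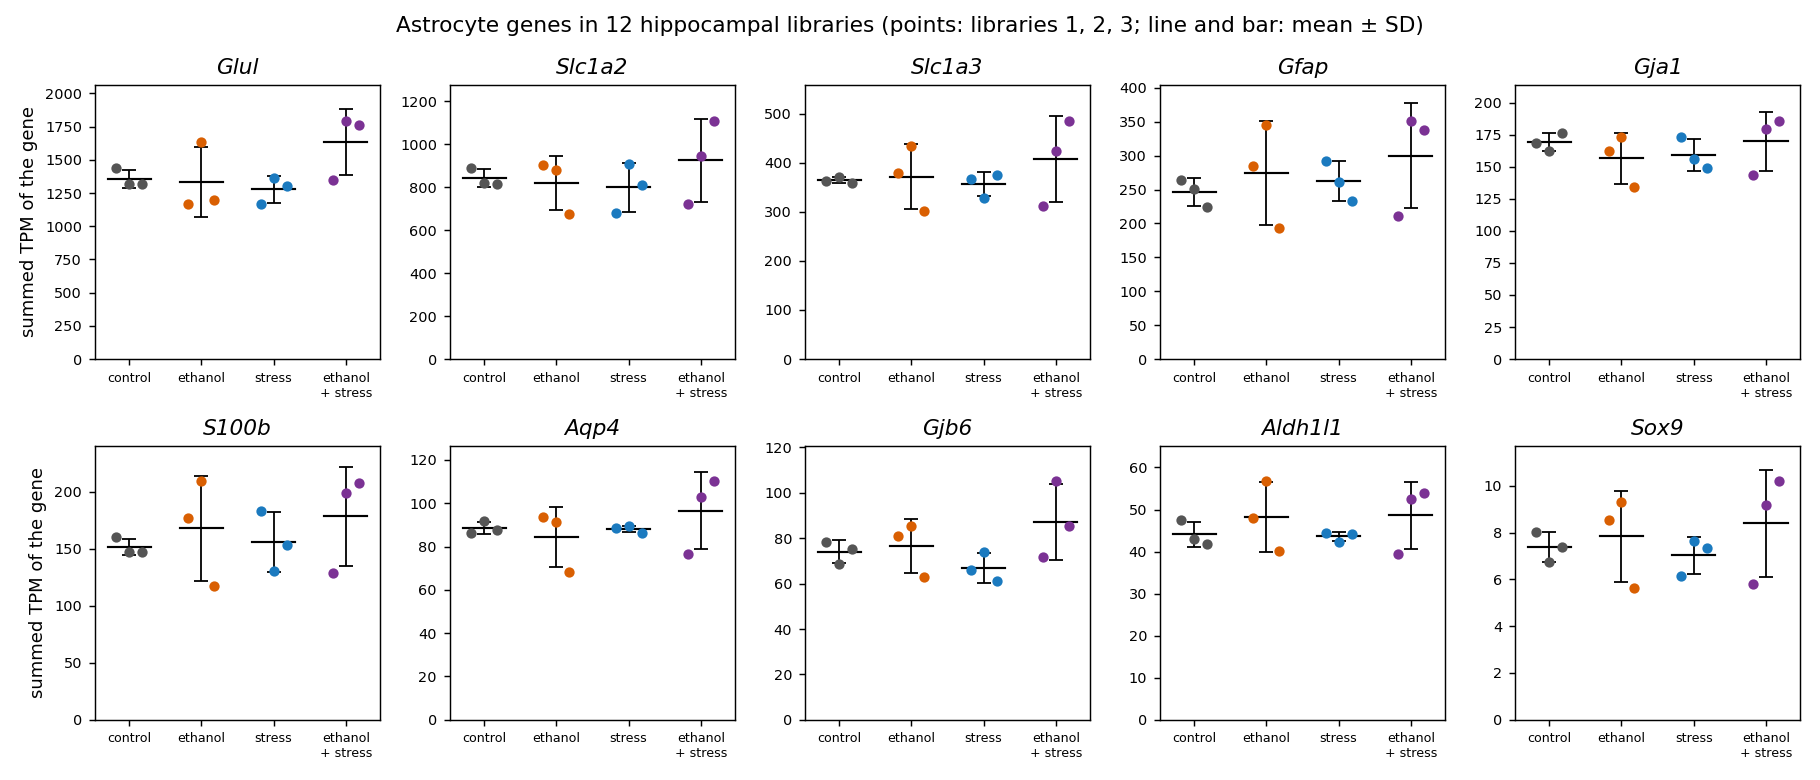
Summed TPM (y axis, from 0) of each of the 10 astrocyte genes by group (x axis), with a point for each library in the order 1, 2, 3 and a line and bar for the mean ± SD of 3 libraries. The ranges of the treated groups overlap that of the control group for every gene, and ethanol 3 and ethanol + stress 1 lie at the low end of their groups for 9 and 10 of the genes.

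The genes of glutamate uptake and glutamine synthesis were the most abundant. Slc1a2 (chr2:102658659-102790784, plus strand, mm10), the main glutamate transporter of the adult forebrain, was at 889, 822 and 813 TPM in control libraries 1 to 3 and at 902, 878 and 675 TPM in ethanol libraries. It was at 682, 907 and 810.1 TPM in stress libraries and at 723, 944 and 1110.1 TPM in ethanol + stress libraries. Of the last 3, 1 is below and 2 are above all control libraries. The log2 fold change of Slc1a2 against control was -0.05 for ethanol, -0.08 for stress and 0.12 for ethanol + stress, each with an SE of 0.17. Slc1a3 (chr15:8634124-8710764, minus strand), which also marks radial glia, spanned 359 to 371 TPM in the control libraries and 328 to 374 TPM in the stress libraries, but 301.3 to 434 TPM with ethanol alone and 312 to 485 TPM with both exposures. Its log2 fold changes were 0.01, -0.03 and 0.14, with an SE of 0.16.

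Glul (chr1:153899944-153909723, plus strand), the enzyme that makes glutamine from glutamate, had the largest fitted difference of the set. It was at 1435, 1316 and 1317 TPM in control libraries, at 1164, 1636 and 1198 TPM in ethanol libraries, at 1164, 1365 and 1305 TPM in stress libraries and at 1350.0, 1795 and 1760.3 TPM in ethanol + stress libraries. Ethanol + stress 2 and 3 stand above every library of the other groups, and ethanol + stress 1 falls within the control range. Against control, the log2 fold change of Glul in ethanol + stress was 0.26 (SE 0.16, 95% interval -0.10 to 0.62, adjusted p = 0.791 in limma). The interaction of ethanol and stress for Glul, the amount by which the combination exceeds the sum of the single exposures, was 0.39 on the log2 scale (95% interval -0.12 to 0.89).

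The gap junction genes code for the 2 main connexins of astrocytes. Gja1 (chr10:56377330-56402513, plus strand) was the steadiest of the set, between 134 and 186 TPM over the 12 libraries, with means of 169 ± 7.02 TPM for control, 159 ± 12.4 TPM for stress, 157 ± 20.2 TPM for ethanol and 169.8 ± 22.8 TPM for ethanol + stress mice (SD, n = 3 each). Its interval was also the narrowest, from -0.38 to 0.14 on the log2 scale for ethanol against control. Gjb6 (chr14:57123303-57133611, minus strand) was at 78.5, 68.4 and 75.2 TPM in control libraries, at 81.1, 85.3 and 62.8 TPM in ethanol libraries, at 65.8, 74.1 and 61.0 TPM in stress libraries and at 71.6, 105.0 and 85.2 TPM in ethanol + stress libraries. One library, ethanol + stress 2, is far above the rest. Over 6 ethanol-exposed libraries against 6, Gjb6 had a log2 fold change of 0.20 (SE 0.10, 95% interval -0.03 to 0.43, adjusted p = 0.76 in limma), the nearest to a call of the 60 tests.

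Aqp4 (chromosome 18, minus strand), the water channel of the endfeet, was at 86.5, 91.7 and 87.7 TPM in control libraries and at 88.7, 89.4 and 86.5 TPM in stress libraries. The ethanol libraries were at 93.7, 91.1 and 68.5 TPM and the ethanol + stress libraries at 76.6, 103 and 110.1 TPM. The 6 libraries without ethanol thus lay close together and those with ethanol spread to either side. The log2 fold change of Aqp4 over 6 ethanol-exposed libraries against 6 was 0.02 (SE 0.10). Ethanol + stress against control gave 0.11 (SE 0.14).

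Gfap (chr11:102887336-102900912, minus strand), the filament protein whose rise is the usual sign of reactive astrocytes, varied most. It was at 264, 251 and 224 TPM in control libraries, at 285, 346 and 194 TPM in ethanol libraries, at 293, 261 and 234 TPM in stress libraries and at 210.5, 352 and 337 TPM in ethanol + stress libraries. The lowest and the highest library of the 12, which differ 1.82-fold, are both ethanol-exposed, and so is the second highest. Against control, the log2 fold change of Gfap was 0.12 (95% interval -0.36 to 0.60) for ethanol, 0.09 (95% interval -0.40 to 0.57) for stress and 0.25 (95% interval -0.23 to 0.73) for ethanol + stress. These intervals include no change and also include a rise of Gfap of over 0.5 on the log2 scale.

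S100b (chr10:76253853-76261159, plus strand) codes for a calcium-binding protein that oligodendrocytes also make. It measured 160.2, 147 and 147 TPM in control libraries, 177, 209 and 118 TPM in ethanol libraries, 183, 130.5 and 154 TPM in stress libraries and 129, 199 and 208 TPM in ethanol + stress libraries. Its highest stress library is stress 1, where the mean of 8 oligodendrocyte markers was also 0.35 above its own mean on the log2 scale, and the part of oligodendrocytes in this value was not tested. Aldh1l1 (chr6:90486427-90600203, plus strand), a folate enzyme used to label astrocytes across brain regions, spanned 41.8 to 47.5 TPM in the control mice, 40.0 to 56.7 TPM in the ethanol mice, 42.3 to 44.4 TPM in the stress mice and 39.5 to 54.0 TPM in the mice with both exposures. Sox9 (chr11:112782224-112787760, plus strand), a factor needed for glial fate, ran from 6.76 to 8.04 TPM, 5.64 to 9.31 TPM, 6.14 to 7.64 TPM and 5.79 to 10.2 TPM in the same groups. For S100b, Aldh1l1 and Sox9 the log2 fold changes in ethanol + stress were 0.21, 0.13 and 0.14, with an SE of 0.22, 0.14 and 0.22. Dip2a, on the opposite strand, overlaps S100b and was at 26.4 TPM; the kit kept strand, but whether strand was used in assigning reads is not given in the sources used here.

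**Figure D2:**
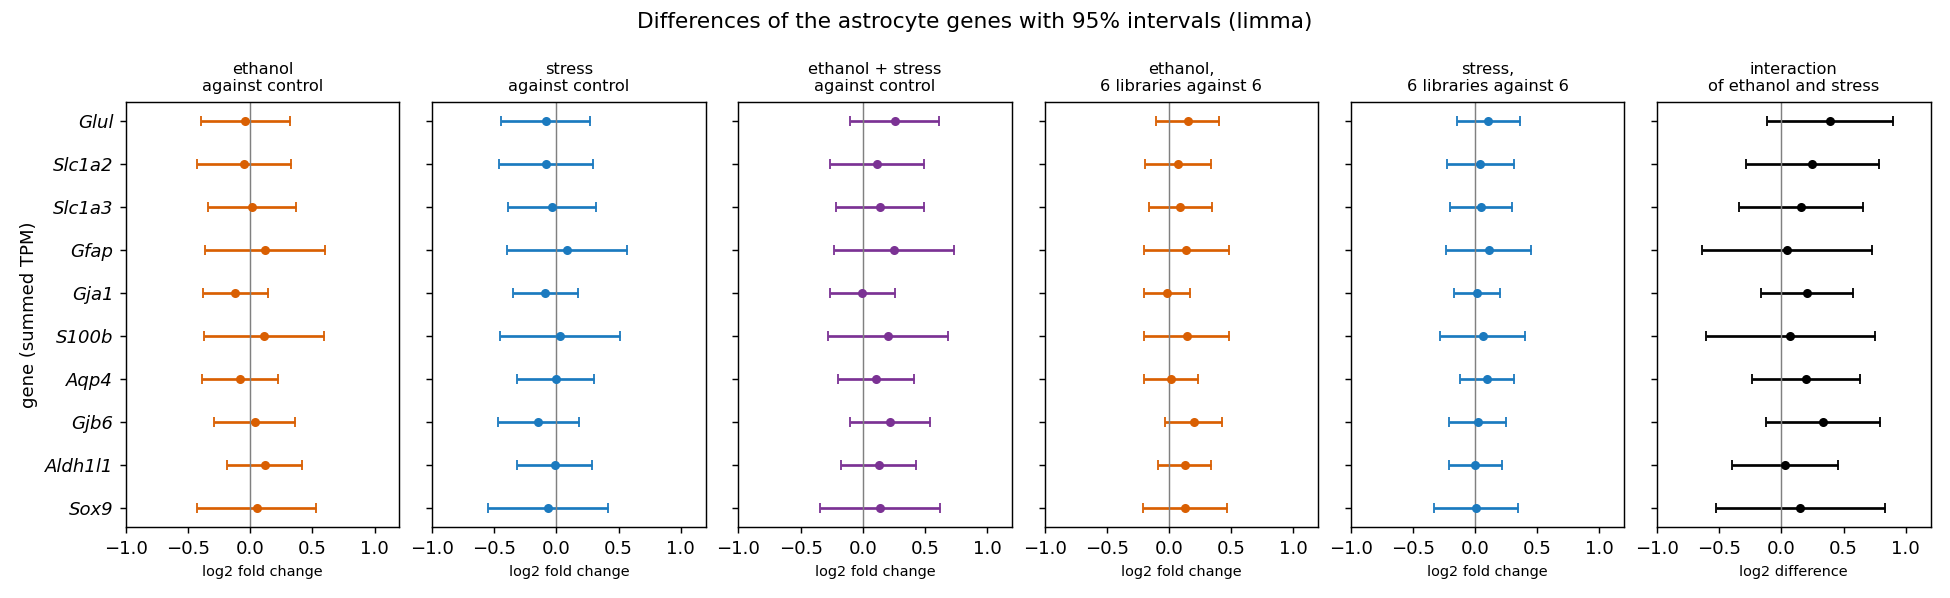
Differences of the 10 genes on the log2(summed TPM + 0.5) scale (x axis) for each of 6 comparisons (panels), with the limma estimate as a point and its 95% interval as a bar. All 60 intervals cross 0. The points lie to the right of it for 6 of 10 genes in ethanol, 2 of 10 in stress, 9 of 10 in ethanol + stress and in both panels of 6 libraries against 6, and 10 of 10 in the interaction.

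As a group, the 10 genes lay mostly above control in the mice that had both exposures, though none passed the test. Their median log2 fold change was 0.02 in ethanol, with 6 of 10 genes above control, -0.05 in stress, with 2 of 10 above, and 0.14 in ethanol + stress, with 9 of 10 above. Over all genes the medians were 0.02, 0.00 and 0.02. Over 6 libraries against 6, 9 of 10 genes were above the others both for ethanol (median 0.13) and for stress (median 0.04). In ethanol + stress 8 of 8 microglia markers were also above control (median 0.19, 0 called). Of these, 3 had an unadjusted p under 0.05 in limma, as had 990 of all 18434 genes. Neuron markers mostly lay below control, with 3 of 8 above it (median -0.11, 0 called). The part of microglia and neurons in the lean of the astrocyte genes was not tested. These comparisons share their control libraries and the genes move together, so the counts are not independent of each other. With every library rescaled to a common total, the median of all genes in ethanol + stress moved to -0.09 and that of the 10 genes to 0.01, with 6 of 10 above control, so that both medians moved down together. With a common total of the transcripts below the 20 highest, these medians were -0.05 and 0.06 with 9 of 10 genes above control, and with median-of-ratios size factors 0.01 and 0.12 with 9 of 10. The lean rested on which mice were included. Without ethanol + stress 3, 6 of 10 genes were above control with a median of 0.03, and without ethanol + stress 2, 9 of 10 with a median of 0.09. Without ethanol + stress 1, all 10 genes were above control with a median of 0.34, and Gfap (0.49), Glul (0.39), Gjb6 (0.35), Slc1a3 (0.32) and Aqp4 (0.26) had an unadjusted p under 0.05, still with 0 of 10 called. The adjusted p of Gfap, Glul, Gjb6, Slc1a3 and Aqp4 in this fit was 0.248 to 0.274 in limma. Calls over all genes also rose, from 179 to 763 without that library, so the rise is not particular to the astrocyte genes. The share of all genes with a p under 0.05 in this fit is not given here. Without ethanol 3, 9 of 10 genes were above control in the ethanol mice, with a median of 0.16, and without ethanol 2, 0 of 10 were, with a median of -0.09. In each of these fits 0 of 10 were called.

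The differences between single mice were larger than those between groups, and the 10 genes shared them. In ethanol 2, ethanol + stress 2 and ethanol + stress 3 all 10 genes were above their own mean over the 12 libraries, and in ethanol 3 and ethanol + stress 1 none was. The mean deviation of the 10 genes was 0.32 on the log2 scale in ethanol + stress 3, 0.27 in ethanol + stress 2 and 0.22 in ethanol 2, against -0.32 in ethanol 3 and -0.22 in ethanol + stress 1. The control and stress libraries stayed between -0.09 and 0.03. Both the highest and the lowest mice were thus ethanol-exposed. This wider spread was not tested.

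**Figure D3:**
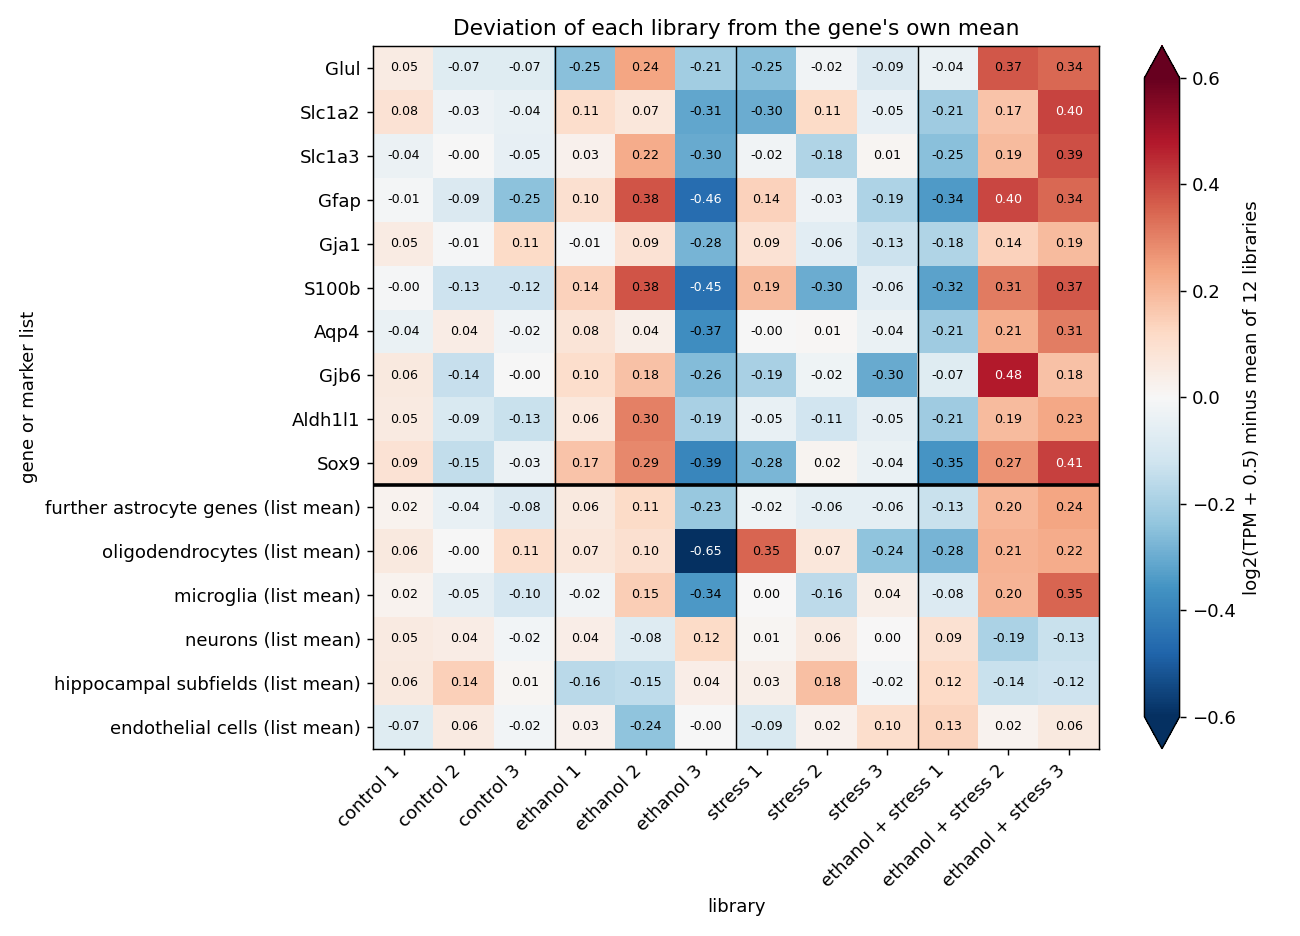
Deviation of each library (columns) from the mean of the 12 libraries, as log2(TPM + 0.5), for the 10 astrocyte genes and for the means of 6 marker lists (rows), red above and blue below the mean. Ethanol 3 and ethanol + stress 1 are low and ethanol 2, ethanol + stress 2 and ethanol + stress 3 are high in all 10 genes, with neuron markers the other way.

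Over the 12 libraries the 45 pairs of astrocyte genes had a Pearson r of 0.58 to 0.93 (median 0.76) and a Spearman rho of 0.39 to 0.95. With the group means subtracted the Pearson r was 0.57 to 0.94. With group means left in but without ethanol + stress 2 and 3, the libraries farthest from the median, it was 0.21 to 0.92. These are descriptions of 12 points that share each library's scaling and tissue make-up. Glul followed the other 9 genes least closely (r = 0.744) and Aldh1l1 most closely (r = 0.964). Of 14432 genes with a mean of at least 1 TPM, 15.8% followed the mean of the 10, after group means were subtracted, at least as closely as the Glul value, so the shared movement reaches far beyond astrocyte genes. The genes most like the mean of the 10 were Dio2 (r = 0.995), the deiodinase that activates thyroid hormone in astrocytes, Fbxo44 (r = 0.987), Abhd4 (r = 0.984), Fbxo32 (r = 0.979) and Brsk1 (r = 0.979).

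Other measures of the libraries moved with this pattern. The library total was highest in ethanol 2, ethanol + stress 3 and ethanol + stress 2 and lowest in ethanol 3, the 20 highest transcripts held from 20.2% of a library in ethanol 3 to 29.2% in ethanol 2, and the mitochondrially encoded protein genes summed to 51951 TPM in ethanol 3 and 94277 TPM in ethanol + stress 3. Microglia markers (8 of 8 found) were at -0.34 in ethanol 3 and 0.35 in ethanol + stress 3 as a mean log2 deviation, and oligodendrocyte markers (8 of 8 found) at -0.65 and 0.22. Oligodendrocyte markers did not follow the astrocyte genes in every library, being highest in stress 1 (0.35) and at -0.24 in stress 3, where the mean of the astrocyte genes was -0.07 and -0.09. Neuron markers went the other way from the astrocyte genes, at 0.12 in ethanol 3 and -0.13 in ethanol + stress 3. Rescaling each library to a common total narrowed the mean deviation of the 10 genes to between -0.15 and 0.14, with ethanol 3 still the lowest and ethanol + stress 3 the highest. Ethanol 2 then lay at -0.01 rather than among the high libraries, and stress 1 and ethanol + stress 1 were both at -0.10. In bulk tissue, fewer astrocytes and less RNA per astrocyte cannot be told apart, and the part of scaling and of cell make-up in these differences was not tested.

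Most of the genes used a single isoform. Of the 50 transcripts, 15 held at least 5% of their gene's summed TPM, and 6 genes had only 1 such transcript. Gfap, Slc1a2, Gjb6 and Aldh1l1 had more. For Gfap and Slc1a2 the isoforms code for different protein ends, and for Slc1a2 the ends of the coding sequences are given with the differing part in capitals (GENCODE vM21 transcripts, 5′ to 3′ on the coding strand).

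The 2 coding isoforms of Gfap are ENSMUST00000067444.9, the common filament protein (GFAP alpha), and ENSMUST00000077902.4, with the alternative tail known as GFAP delta. ENSMUST00000067444.9 held 91.0% to 92.3% of the summed TPM of Gfap and ENSMUST00000077902.4 held 6.32% to 8.04%, so that the total of Gfap described above is nearly that of the common form.

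Slc1a2 isoforms differ at both ends, and the printed stretches show how little of the coding sequence that is. ENSMUST00000080210.9 held 59.2% to 63.9% of the gene and ENSMUST00000111212.7 held 24.5% to 29.9%. Both have the same last coding bases but begin differently (chr2:102659285-102735957 and chr2:102706476-102735957, plus strand), and a further isoform, ENSMUST00000005220.10, ends differently (chr2:102777635-102777691 against chr2:102777635-102781531). That isoform, picked for its end after its values were seen, held 2.11% to 4.39% of the gene, and its log2 fold change in ethanol + stress was 0.59 (SE 0.25, adjusted p = 0.888 in limma).
Slc1a2 ENSMUST00000080210.9, coding start: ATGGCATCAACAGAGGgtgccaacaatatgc
Slc1a2 ENSMUST00000111212.7, coding start: ATGGTCAgtgccaacaatatgc
Slc1a2 ENSMUST00000080210.9, coding end: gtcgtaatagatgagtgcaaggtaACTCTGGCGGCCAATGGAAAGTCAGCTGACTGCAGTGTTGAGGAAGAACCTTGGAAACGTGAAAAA
Slc1a2 ENSMUST00000005220.10, coding end: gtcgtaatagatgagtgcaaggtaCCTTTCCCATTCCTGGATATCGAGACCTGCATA

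No shift of the isoform make-up passed the test. The share of the leading isoform was compared between 6 exposed and 6 unexposed libraries with an exact two-sided permutation test within the levels of the other exposure, in 8 tests whose smallest possible p is 0.005. The lowest p was for Gfap and stress, where the leading isoform held 92.1% ± 0.178 (SD, n = 6) of the gene in separated and 91.7% ± 0.467 in undisturbed mice, a difference of 0.39 percentage points (exact permutation p = 0.09, adjusted over the 8 tests p = 0.697). For Slc1a2 the leading isoform held 61.7% ± 2.16 with ethanol and 62.6% ± 1.35 without (exact permutation p = 0.425). Gjb6 ENSMUST00000039380.8 held 63.0% ± 4.65 in separated and 59.8% ± 2.47 in undisturbed mice (exact permutation p = 0.19). The second transcript of Gjb6, ENSMUST00000162931.1, is only 201 bases long and non-coding, about the length of a sequenced fragment. Its TPM is thus uncertain, and with it the 25.9% to 38.4% of the gene that it holds. The leading transcript of Aldh1l1, ENSMUST00000032175.10, held 83.1% ± 3.05 of the gene with ethanol and 84.2% ± 4.05 without (exact permutation p = 0.61). The other Aldh1l1 transcripts of at least 5% over the 12 libraries were ENSMUST00000130418.7, at 3.48% to 8.004%, and ENSMUST00000204796.2, at 0.721% to 10.1%.

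**Figure D4:**
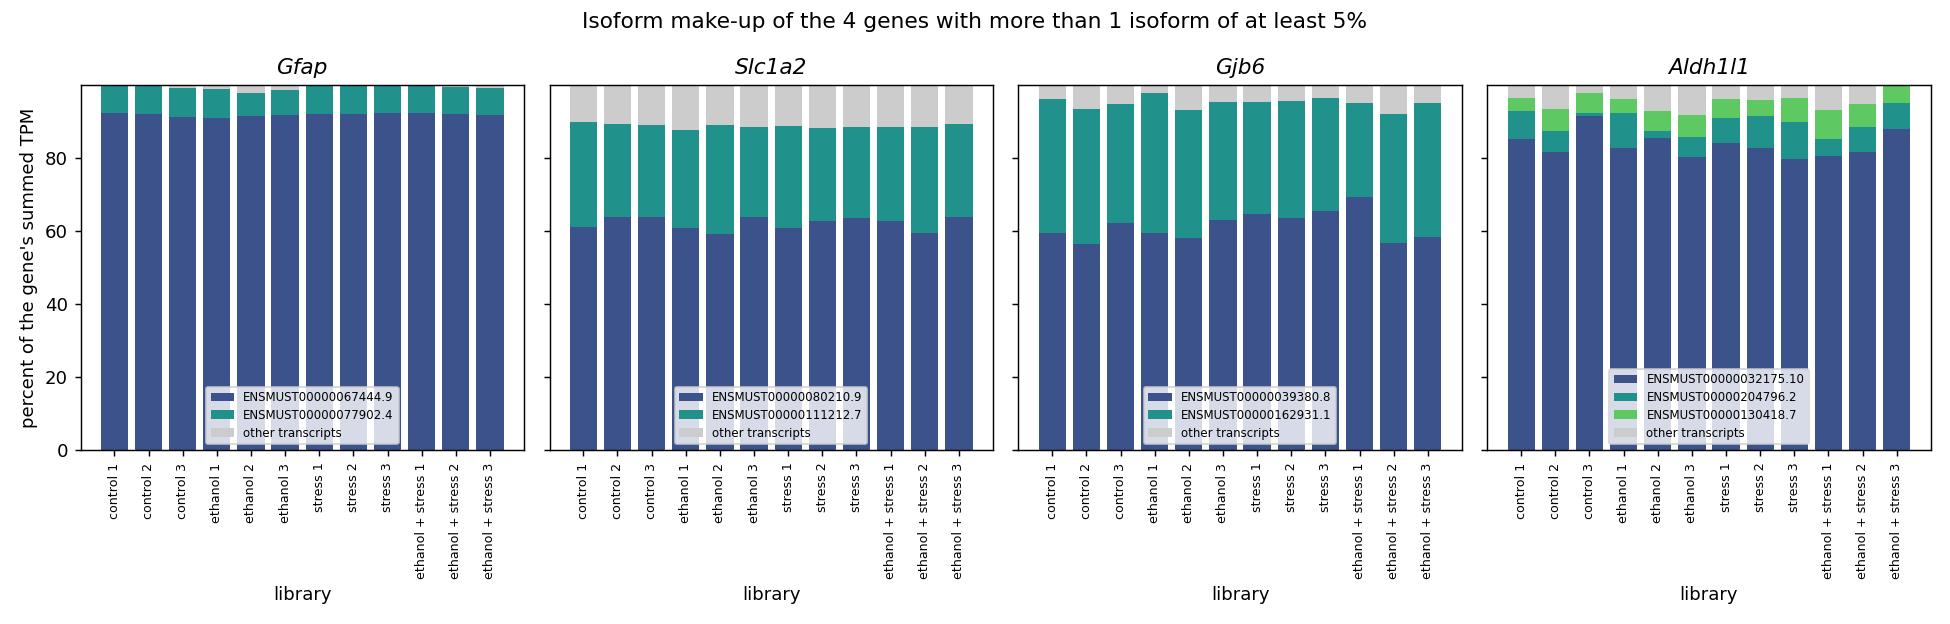
Percent of the summed TPM of Gfap, Slc1a2, Gjb6 and Aldh1l1 (y axis) held by each isoform of at least 5% (colours) and by the others together (grey) in each of the 12 libraries (x axis). The leading isoforms keep 91.0% to 92.3% of Gfap and 59.2% to 63.9% of Slc1a2 in every library.

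Of the 50 transcripts 40 were tested one by one, and 4 had a p under 0.01 in some comparison. In ethanol mice 2 of 40 were called, beside 1.25% of all 59066 transcripts tested, in stress mice 1 of 40 beside 0.918%, and in ethanol + stress mice 0 of 40 beside 1.22%. The 6 ethanol-exposed against 6 other libraries gave 1 of 40 beside 1.47%, the 6 separated against 6 others 1 of 40 beside 0.936%, and the interaction 0 of 40 beside 0.862%. At a p under 0.05 there were 5 of 40 in ethanol (3210 of all 59066), 1 of 40 in stress (2291), 3 of 40 in ethanol + stress (3284), 5 of 40 and 1 of 40 over 6 libraries against 6 for ethanol (3850) and stress (2446), and 2 of 40 for the interaction (2400). All 4 transcripts called were among the 12 tested that are shorter than 500 bases, and 0 of the 28 longer ones was called. The share called among all transcripts of these lengths is not given here. The split by length therefore cannot be read as a trait of the astrocyte genes. Each holds a small percentage of its gene and none passed adjustment over all transcripts.

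ENSMUST00000140685.2 of Glul (chr1:153901116-153906356, 379 bases, an incomplete coding model) was higher in stress mice. It was at 8.17, 7.11 and 4.88 TPM in control libraries and at 23.9, 17.7 and 10.6 TPM in stress libraries, which do not overlap, and these values stand on 6.92 to 12.4 and 17.9 to 40.9 read pairs. The ethanol libraries were at 11.3, 8.43 and 11.3 TPM and the ethanol + stress libraries at 19.4, 8.37 and 11.3 TPM. Against control its log2 fold change in stress was 1.26 (SE 0.34, adjusted p = 0.913 in limma), while the whole of Glul was at -0.09. Over 6 separated libraries against 6 it was also called, at 0.76 (SE 0.24), but that call was lost in 16 of 23 alternatives. The call in stress mice was lost when control 3, stress 1 or stress 2 was left out.

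ENSMUST00000127909.1 of Gfap (chr11:102894487-102900912, minus strand, 356 bases, annotated as non-coding) was higher in ethanol-exposed mice. It starts upstream of both coding isoforms, and its first 160 bases are shown with the part that matches neither of them in capitals (chr11:102895797-102900912).
Gfap ENSMUST00000127909.1, start: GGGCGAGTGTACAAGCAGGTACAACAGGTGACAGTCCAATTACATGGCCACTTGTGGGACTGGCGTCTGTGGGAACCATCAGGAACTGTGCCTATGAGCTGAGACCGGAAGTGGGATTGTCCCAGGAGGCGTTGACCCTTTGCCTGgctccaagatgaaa
The control mice had 0, 1.07 and 1.89 TPM of it, and the ethanol mice 3.53, 7.44 and 2.46 TPM. The stress mice were at 0.853, 0 and 0.853 TPM and the ethanol + stress mice at 0.853, 1.71 and 2.89 TPM. The ethanol libraries are above all control libraries, and the ethanol + stress libraries overlap them. The call was over 6 ethanol-exposed libraries against 6 (adjusted p = 0.665 in limma). The 6 libraries without ethanol held at most 2.33 read pairs each, under a floor of 3, so no fold is given, and no library held over 8.69. That call was lost without any one of control 1, control 2, ethanol 1, ethanol 2, stress 2, ethanol + stress 2 and ethanol + stress 3.

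ENSMUST00000136221.7 of Slc1a2 (chr2:102659258-102735959, 209 bases, annotated as non-coding) measured 4.39, 4.88 and 5.89 TPM in control libraries, against 19.1, 11.96 and 11.8 TPM with ethanol, which do not overlap. The stress libraries were at 16.3, 3.42 and 5.76 TPM and the ethanol + stress libraries at 12.2, 8.46 and 9.44 TPM. Its log2 fold change in ethanol was 1.39 (SE 0.43, adjusted p = 0.778 in limma), and as its length is close to that of a fragment no read pairs can be given for it. The last, ENSMUST00000152436.1 of Aldh1l1 (chr6:90567706-90570884, 472 bases, non-coding), was at 0 in all 3 control libraries and at 0.925, 0.874 and 0.925 TPM in ethanol libraries (adjusted p = 0.751 in limma). The stress libraries were at 0, 0.847 and 0.805 TPM and the ethanol + stress libraries at 0, 0.900 and 0 TPM, so that 2 of 3 stress mice were near the ethanol level and 2 of 3 mice with both exposures were at 0. The ethanol values stand on 1.79 to 2.32 read pairs, under the floor of 3 read pairs that a count of 0 allows, so no fold is given. These floors cover counting error only. The calls of the Slc1a2 and Aldh1l1 isoforms were both lost when any single control or ethanol library was left out.

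**Figure D5:**
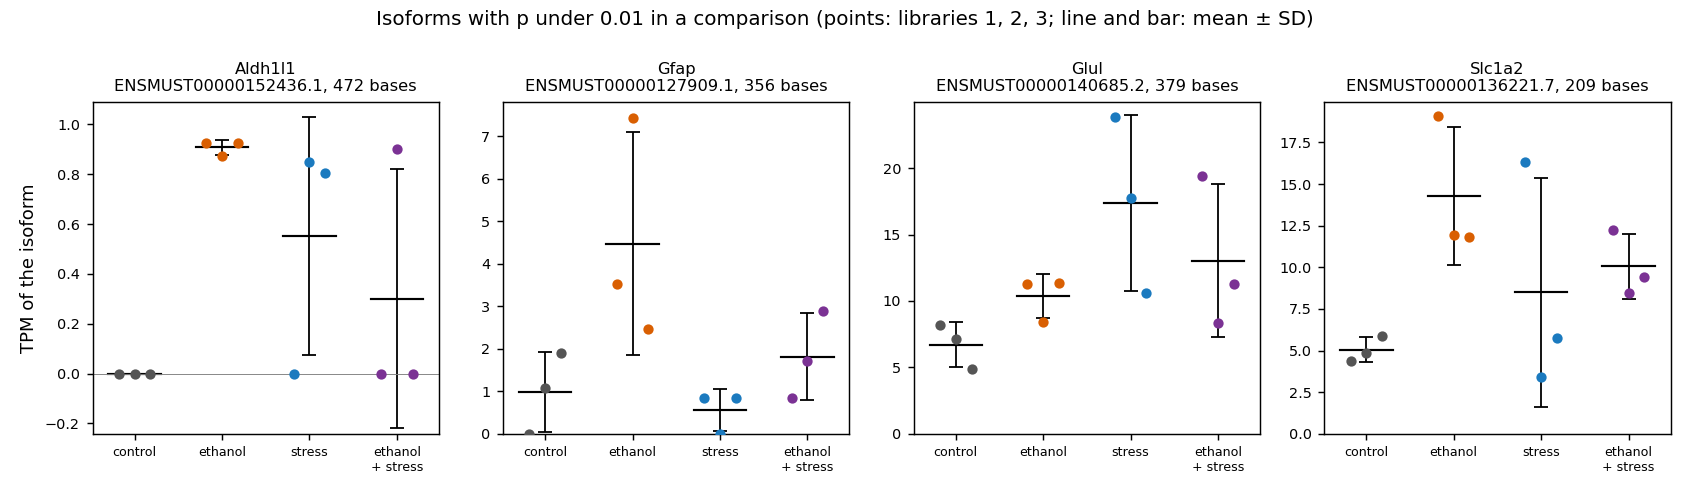
TPM (y axis) of the 4 short isoforms with a p under 0.01 in some comparison, by group (x axis), with a point for each library in the order 1, 2, 3 and a line and bar for the mean ± SD of 3 libraries. Every ethanol library of the Slc1a2, Gfap and Aldh1l1 isoforms and every stress library of the Glul isoform is above the control libraries.

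The wider lists of astrocyte function had 1 call. Of 28 further astrocyte genes 0 were called in any of the 6 comparisons, and in ethanol + stress 25 of 28 were above control with a median log2 fold change of 0.15, close to the 0.14 of the 10 genes. The most abundant of them were Apoe, the lipid carrier, with 3433 to 3790 TPM in control libraries against 2983 to 4698 TPM with both exposures, and Cst3, a protease inhibitor, with 2190 to 2616 TPM against 2198 to 3429 TPM. Of 34 genes of reactive astrocytes 33 were tested, Slc10a6 being under 0.1 TPM in every library, and 0 were called in any comparison. In ethanol + stress their median was 0.11, with 22 of 33 above control, and in ethanol it was -0.05, with 14 of 33 above. Genes at the endfeet (14 tested) and connexins and pannexins (10 tested) also had 0 called, with medians of 0.05 and -0.05 in ethanol + stress. The glutamate-glutamine cycle list (13 tested), which holds neuronal genes such as Slc17a7, the vesicular glutamate transporter, had 0 called and a median of -0.18 in ethanol + stress, where 3 of 13 were above control.

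Among 14 gliogenic transcription factors 1 was called in ethanol + stress, beside 0.971% of all genes, and 0 in the other 5 comparisons. Id1, an inhibitor of DNA binding that BMP signals induce, was at 15.7, 16.6 and 21.9 TPM in control libraries and at 23.5, 28.9 and 27.7 TPM in ethanol + stress libraries, which do not overlap. Its log2 fold change was 0.56 (SE 0.13, adjusted p = 0.791 in limma). With every library rescaled to a common total it was 0.43 and no longer called. Id1 was higher in all 3 ethanol + stress libraries, ethanol + stress 1 included, where all 10 astrocyte genes were below their own mean. Id1 is also made by endothelial cells, whose 6 markers summed to 122 to 129 TPM in control libraries against 130.2 to 141 TPM with both exposures, and their part in its value was not tested.

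Among the markers of other cells, those of blood were called. Blood markers, which are globin and haem synthesis genes, were higher in ethanol and in ethanol + stress mice for 5 of 5 genes, and for 5 of 5 over 6 ethanol-exposed libraries against 6. They summed to 1603 to 2022 TPM in the control libraries and 2593 to 3392 TPM in the stress libraries, against 3146 to 6815 TPM with ethanol alone and 2454 to 6480 TPM with both exposures. The other 12 marker lists had 6 calls in 426 tests (71 genes in 6 comparisons), beside 0.461% to 1.12% of all genes, a share too near the background to be read as a result. The 4 genes called were these: Cpne7 and C1ql2 of the hippocampal subfields were lower with ethanol, Vwf of the endothelium was higher with separation over 6 libraries against 6, and Tmem119 of microglia had a positive interaction. The part of blood and of other cells in the values of the astrocyte genes was not tested.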

How the data were processed

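The hippocampal RNA of 12 mice was examined in 1 deposited table of 115270 transcripts. Per the labels, the libraries were stranded and rRNA-depleted. Per the study's methods, the authors assigned paired-end reads to the Ensembl mouse transcriptome with kallisto and tested them with sleuth; the submitters' processing notes also name CASAVA and mm10, and tool versions are not given in the sources used here. The deposited values are TPM that were scaled between libraries, which makes them a normalized signal rather than counts, and 22618 transcripts at 0 throughout had been kept. Groups and replicate numbers came from the sample titles.

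Transcripts were matched by identifier to GENCODE vM21 (113580 matched, 112441 with the same version, and unmatched ones holding 0.518% to 0.58% of a library) and summed per gene. Features that reached 0.1 TPM in 6 or more libraries entered limma (version 3.58.1, under R 4.3.3; lmFit and eBayes with trend, two-sided) on a log2 scale with a pseudocount of 0.5, which understates fold changes of low features. The model had a mean for each of the 4 groups. The Benjamini-Hochberg adjustment ran over every feature tested. Isoform shares were tested with Python 3.11.15 and scipy 1.17.1. The scripts were checked on simulated data. Named were all 10 members, isoforms of at least 5% of a gene or called, called genes of other lists (at most 4 per list, otherwise the 2 most abundant) and the 5 genes most like the members. An Slc1a2 isoform under 5% was named outside this rule. The members, lists and tests were chosen with earlier results of these data known. Of 194 list genes, 1 was not matched by symbol. No column was left unused. The coding ends of the Gfap isoforms are not reported here. Read pairs were recovered from the spacing of low values of transcripts of at least 600 bases, and their intervals cover counting error only. For the shorter called isoforms the same step was applied to the transcript length less the mean fragment length. The read pairs of these isoforms, and the floors set on them, are therefore approximate.

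Alternatives were other pseudocounts (0.1 and 1), filters, scalings, a length correction, a replicate block, protein-coding transcripts only and each library left out in turn. A scaling without the 20 highest transcripts was added after seeing the data.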

Additional observations from a re-analysis of the deposited data

How the results depend on the processing

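On gene sums 0 of 10 astrocyte genes were called under each of 25 other settings, whose 1470 values for the 10 genes reached a lowest p of 0.0185 in limma (Gjb6, 6 ethanol-exposed libraries against 6, without ethanol + stress 1). In 104 of these values the sign turned, none of them past the threshold. The calls of short isoforms were less firm, and what caused each loss was not tested. In ethanol mice 2 became 1 with a minimum of 1 TPM, no filter, a common total, median-of-ratios size factors or eBayes without trend, 0 with the length trend removed, 3 with only the groups compared in the fit, and 0 to 2 with a library left out. In stress mice 1 became 0 to 1 with a library left out. In ethanol + stress mice 0 became 1 with only the groups compared in the fit and 0 to 1 with a library left out. Over 6 ethanol-exposed libraries against 6, 1 became 0 with a pseudocount of 0.1 and 0 to 3 with a library left out. Over 6 separated libraries against 6, 1 became 0 with a pseudocount of 0.1, no filter, either common total, size factors, the length trend removed or eBayes without trend, and 0 to 1 with a library left out. The interaction went from 0 to 1 with either common total and 0 to 1 with a library left out. Of the single isoforms, that of Glul lost its call in stress in 3 of 24 alternatives and over 6 libraries against 6 in 16 of 23, that of Slc1a2 in ethanol in 15 of 24, that of Aldh1l1 in ethanol in 7 of 23 and that of Gfap over 6 libraries against 6 in 8 of 23. The stress difference in the leading share of Gfap was 0.25 to 0.49 percentage points with a library left out, with an exact permutation p of 0.03 without control 1, and turned to -0.16 over coding transcripts only. Id1 lost its call with a common total (log2 fold change 0.43).

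On gene sums with group means subtracted, same-numbered libraries of different groups had correlations of -0.17 to 0.16, and differently numbered ones -0.33 to 0.34. These values cannot show whether same-numbered mice share a litter or a batch. With the replicate block, the isoform count became 3 in ethanol mice, 4 over 6 ethanol-exposed libraries against 6 and 1 for the interaction. With that block 0 of the 10 astrocyte genes were called on gene sums. Over all gene sums, calls fell to 118 in ethanol + stress with a common total, 54 higher and 64 lower, from 179 with 128 higher and 51 lower, and went to 653 and 352 from 207 over 6 ethanol-exposed libraries against 6 without ethanol + stress 1 and without ethanol 3. With 3 mice a group, intervals against control as wide as -0.23 to 0.73 (Gfap in ethanol + stress) limit what the absence of a call can show. The intervals of the interaction were wider still, at -0.64 to 0.73 for Gfap.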
